A study of Mus musculus with 6 samples.

Results

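Genes of mouse chromosome 8 were set apart by a single iPSC clone. The set held 329 genes, out of 932 genes of this chromosome measured by a probe set with 1 symbol and out of 6025 named genes of the whole array that passed the same threshold on signal. A gene was chosen by its place on chromosome 8 in the RefSeq annotation of GRCm38 and by a mean signal above 500 over the 6 arrays, using for each gene the probe set with the highest mean log2 value. Each gene was then described by its shift, which is log2(signal + 16) in clone 4 minus the median of the same value in the other 5 clones. Of the 329 genes, 326 were protein coding, 2 were transcribed pseudogenes and 1 was a long noncoding RNA.

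The study asked whether chemicals present during reprogramming change the state of the resulting mouse iPSCs. Its mouse embryonic fibroblasts carried a Nanog reporter that joins GFP to puromycin resistance, and all were reprogrammed with retroviruses for Oct3/4, Sox2, Klf4 and c-Myc, so every clone below shares these. The mixture called 3i holds CHIR99021, which inhibits GSK3, PD184352, which inhibits MEK, and SU5402, which inhibits FGF receptors. The (−)/(+) iPSCs, clones 1, 2 and 3, met 3i only during maintenance, and the (+)/(+) iPSCs, clones 4, 5 and 6, during both reprogramming and maintenance. Each array measured RNA of 1 clone, so clone 4 had no replicate of its own, and a feature of that clone and a feature of that array cannot be told apart.

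Gain of chromosome 8 is a known and recurrent change of cultured mouse pluripotent cells. When a cell carries an extra copy of a chromosome, most genes on it are transcribed in rough proportion to their copies, while some keep their usual RNA level or depart from it through their own regulation. Microarray signals measure RNA, and the DNA copy number of these clones was not analysed here. The paper reports array CGH on its iPSC lines, with genetic alterations about as frequent in both groups. Its text compares the groups and does not describe single clones. As a scale for the shifts below, a ratio of 3 over 2 corresponds to 0.58 and a ratio of 2 to 1 on the log2 scale.

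Promoters of 3 genes show what kind of gene start the set includes, chosen as a gene with a high shift (Nip7, a ribosome biogenesis factor), a gene close to the median (Mvd, an enzyme of the mevalonate pathway) and a gene that did not follow (Klf2, a transcription factor of the naive pluripotent state). They are RefSeq sequences of GRCm38.p6, from 250 bases before to 50 bases after the gene start, read 5′ to 3′ on the gene's strand, with each CG in capitals. Nip7 lies on the plus strand (chr8:107056627-107056926), Mvd on the minus strand (chr8:122443373-122443672) and Klf2 on the plus strand (chr8:72318812-72319111).
Nip7: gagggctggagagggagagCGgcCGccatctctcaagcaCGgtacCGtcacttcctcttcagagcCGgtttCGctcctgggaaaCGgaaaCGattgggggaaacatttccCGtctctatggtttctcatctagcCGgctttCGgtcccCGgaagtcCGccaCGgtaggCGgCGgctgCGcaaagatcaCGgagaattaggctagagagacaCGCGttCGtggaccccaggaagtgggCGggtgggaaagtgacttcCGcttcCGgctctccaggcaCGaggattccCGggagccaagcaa
Mvd: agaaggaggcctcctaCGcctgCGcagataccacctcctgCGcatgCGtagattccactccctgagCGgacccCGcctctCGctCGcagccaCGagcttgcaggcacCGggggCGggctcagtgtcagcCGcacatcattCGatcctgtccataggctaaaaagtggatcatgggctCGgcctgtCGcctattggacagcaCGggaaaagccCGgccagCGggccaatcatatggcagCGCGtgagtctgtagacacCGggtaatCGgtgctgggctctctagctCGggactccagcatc
Klf2: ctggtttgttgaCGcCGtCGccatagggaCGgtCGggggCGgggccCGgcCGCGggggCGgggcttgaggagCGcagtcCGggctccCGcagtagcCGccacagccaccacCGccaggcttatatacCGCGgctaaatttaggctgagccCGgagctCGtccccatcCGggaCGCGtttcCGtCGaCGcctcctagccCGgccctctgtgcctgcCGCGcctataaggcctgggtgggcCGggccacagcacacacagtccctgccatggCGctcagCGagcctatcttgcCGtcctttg
These windows held 26, 23 and 32 CG, against a median of 7 over all 32851 promoters of the table, of which 94.6% held at least 1. All 3 windows held more CG than the median promoter, although the genes lay at different places in the order of shifts. RefSeq promoters were matched for 239 of the 329 genes, which is 72.6% and too few for a check of promoter content over the set, so that check is void. Among those 239 genes the median was 24 CG, taking for each gene the start with the most CG. The 3 windows printed here therefore do not stand out among them.

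The labels were checked on marker genes before the chromosome was described. All 12 markers of pluripotent cells had a mean signal above 500, and their summed signal was 132018 to 140922 in the (−)/(+) and 147996 to 155978 in the (+)/(+) clones, with clone 4 at 148968. Of 14 fibroblast markers, 4 exceeded 500. Their summed signal was 25037 to 33299 in the (−)/(+) clones, 19620 and 18876 in clones 5 and 6, and 16655 in clone 4, the lowest of the 6. The part of this difference in the shifts of chromosome 8 was not tested. The median signal over a whole array was also lowest in clone 4, at 64.1 against 67.6 to 75.7 in the others.

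The median signal of the 329 genes was 1438 in clone 1, 1459 in clone 2, 1438 in clone 3, 1945 in clone 4, 1488 in clone 5 and 1450 in clone 6. Clone 4 lay above all others and the remaining clones lay close together. Expressed as shifts, each clone against its 5 others, the medians were −0.07, −0.02 and −0.04 in clones 1, 2 and 3, 0.46 in clone 4, and −0.03 and −0.07 in clones 5 and 6. The 5688 genes of other chromosomes with the same signal threshold had a median shift of −0.02 in clone 4. Taken chromosome by chromosome, their medians in clone 4 ran from −0.09 on chromosome 11 to 0.01 on chromosome 13, and chromosome 8 was the only one outside that range.

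In clone 4 the median shift of 0.46 corresponds to a 1.37-fold higher value, with an interquartile range of 0.30 to 0.59 and an SD of 0.23 over genes. The genes of other chromosomes had an interquartile range of −0.19 to 0.13 and an SD of 0.27. These values chose the pattern under description, so they carry no test, and a single clone gives no replicate error for it. The median gene of the set had an SD of 0.16 over the other 5 clones, and in 226 of the 329 genes the shift exceeded 2 of its own SDs (68.7%, against 10.8% of all 6025 named genes). Measured against the mean of clones 5 and 6 the median difference of clone 4 was 0.44, and against the mean of clones 1, 2 and 3 it was 0.45, so both treatment groups gave a similar value as reference.

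Of the 329 genes, 238 (72.3%) were raised in clone 4 by more than 0.32, the log2 threshold used for both directions, where 9.23% of all 6025 named genes were. Only 2 genes (0.608%) were lowered by as much, against 11.6% of all named genes, and 89 lay between. Left without clone 2 or without clone 3 in the reference, 1 gene was lowered. Clone 4 had the highest value of the 6 clones in 275 genes (83.6%), against 20.2% of all. In 8 genes (2.43%) it lay at or below the median of the other clones, against 50.7% of all. The shift exceeded 0.58 in 83 genes (25.2%, against 2.17% of all) and 1 in 2 genes, Tex15 and Nip7 (0.608%, against 0.266% of all). For comparison within the set, the clone with the next most frequent highest value was clone 2, with 21 genes, and clone 5 had 4.

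**Figure D1:**
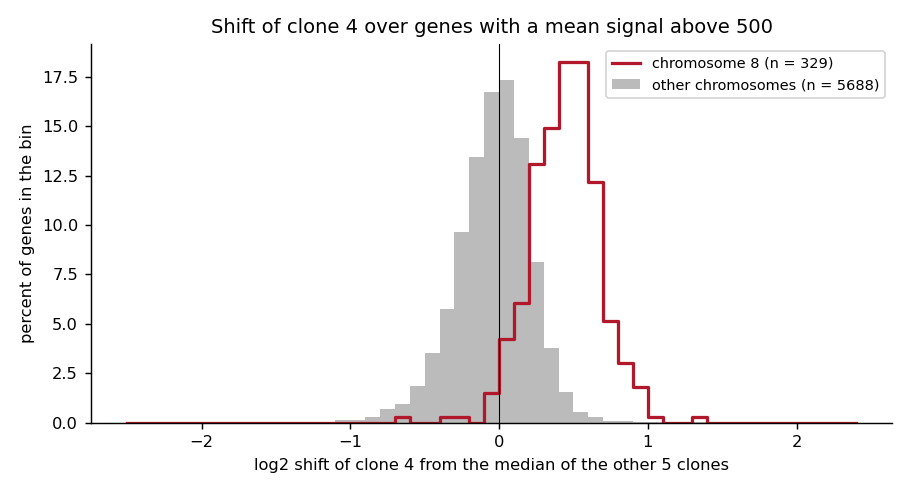
Percent of genes (y axis) by the log2 shift of clone 4 from the median of the other 5 clones (x axis, bins of equal width), for the 329 genes of chromosome 8 (red line) and 5688 genes of other chromosomes (grey bars). The red distribution is displaced to the right as a whole, with its median at 0.46 against −0.02 for the grey one.

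The shift ran along the whole measured length of the chromosome. Cut into 17 blocks of 20 neighbouring genes, of which the last overlaps its neighbour, the block medians in clone 4 lay between 0.33 and 0.59. The lowest block ran from Ctu2, a tRNA thiolation enzyme, to Gnpat (chr8:122476068-124890057), and the highest from Cenpt, a kinetochore protein, to Psmd7, a proteasome subunit (chr8:105844669-107588482). In that highest block clone 4 had the top value in all 20 genes, as it did in the block from Lsm6 to Mri1 (chr8:78804868-84257324). The first block, from Arhgef18 to Grtp1, had a median of 0.34 and the last, from Afg3l1 to Itgb1, 0.37. In the other 5 clones no block median was below −0.19 or above 0.16, so the blocks of clone 4 did not overlap with those of any other clone. Across genes, the shift had a Spearman correlation of 0.06 with order along the chromosome (n = 329 genes, which share the same 6 arrays).

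**Figure D2:**
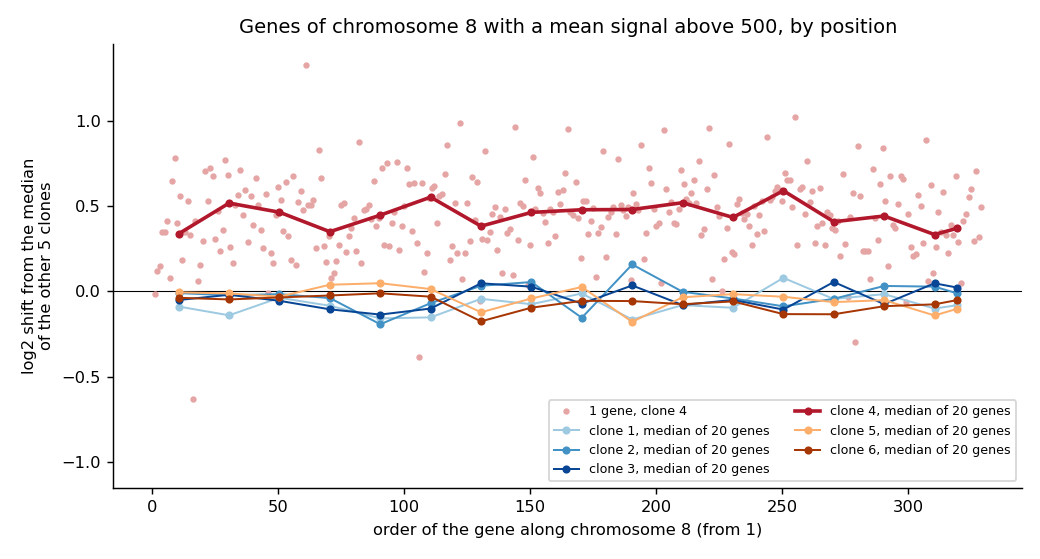
Log2 shift from the median of the other 5 clones (y axis) against gene order along chromosome 8 (x axis), with a pale point for each of the 329 genes in clone 4 and lines for the medians of 20 neighbouring genes in each clone. The line of clone 4 stays between 0.33 and 0.59 from end to end, above the lines of the other 5 clones.

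The size of the shift varied with the level of the gene. Among chromosome 8 genes with a mean signal of 500 to 1000 the median shift was 0.37 (92 genes), at 1000 to 2000 it was 0.47 (109 genes), at 2000 to 5000 it was 0.47 (80 genes), and above 5000 it was 0.49 (48 genes). Genes of other chromosomes moved with signal too, with medians of −0.08, −0.06, 0.01 and 0.10 in the same bins, so the gap to them was 0.45, 0.52, 0.46 and 0.39. Genes outside the set, with a mean of 500 or less, numbered 603 and had a median shift of 0.08, and clone 4 was highest in 154 of them (25.5%), while 11412 genes of other chromosomes at this level had a median of −0.12 and clone 4 highest in 9.91%. In these dim genes the median shift was 0.36 at 250 to 500, 0.20 at 100 to 250 and −0.00198 at 50 to 100, and with 1 in place of 16 added to the signal these medians were 0.37, 0.22 and −0.00235.

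**Figure D3:**
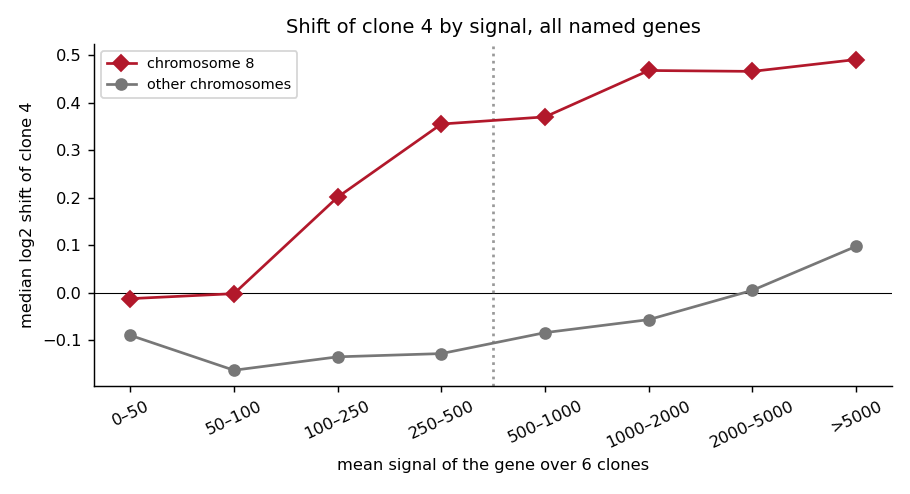
Median log2 shift of clone 4 (y axis) in bins of mean signal over the 6 clones (x axis), for chromosome 8 (red) and other chromosomes (grey), with the threshold of 500 as a dotted line. The red medians rise from −0.01 in the dimmest to 0.49 in the brightest bin. The grey ones fall from −0.09 to −0.16 at 50 to 100 and then rise to 0.10.

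The threshold passed through a range in which single genes differed. Just above it lay Slc7a6os (mean signal 502, shift 0.59), Zfp868 (502, 0.69) and Herpud1 (507, 0.76), a protein of the endoplasmic reticulum stress response. Just below it lay Col4a1 (493, −0.36), a basement membrane collagen, Cdk10 (495, 0.25) and Dnase2a (495, 0.18). The mean signal includes clone 4. In Slc7a6os, Zfp868 and Herpud1 the mean of the other clones alone lay below the threshold. These genes were therefore in the set only through their signal in clone 4. Their higher shifts are not independent of the rule, and the contrast across the threshold does not describe the genes themselves.

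Tex15 and Nip7 led the 10 genes with the highest shift. Tex15, a germ cell protein needed in male meiosis, had signals of 1011, 652 and 1044 in clones 1, 2 and 3, 2640 in clone 4, and 1386 and 1987 in clones 5 and 6, a shift of 1.32 that was 0.66 against clones 5 and 6. Clone 4 was highest, and clones 5 and 6 both lay above the (−)/(+) clones. Nip7, whose promoter is printed above, had signals of 4987, 5825 and 5588, then 11849 in clone 4, then 6292 and 8078, a shift of 1.02. Its order of groups was the same, with clone 4 well apart. Anapc10, a subunit of the anaphase-promoting complex, had 4216, 3939 and 3524, then 8155, then 4548 and 6002, a shift of 0.95.

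Nr2c2ap and Psmb10 lacked this order of groups. Nr2c2ap, a partner of the nuclear receptor Nr2c2, had signals of 333, 502 and 524 in clones 1, 2 and 3, 907 in clone 4, and 449 and 439 in clones 5 and 6, a shift of 0.99. Psmb10, a catalytic subunit of the immunoproteasome, had 570, 532 and 461, then 878, then 377 and 436, a shift of 0.91. Clone 4 exceeded every other clone in both genes, and clones 5 and 6 overlapped with or fell below the (−)/(+) clones. In both genes the mean of the other clones alone lay below the threshold. Both were therefore in the set only through their signal in clone 4, and their shifts are not independent of the rule. Ciapin1, a factor of iron-sulphur cluster assembly, had a shift of 0.96 and Chmp1a, a component of the ESCRT-III membrane scission machinery, 0.89, both with clone 4 highest. Ufsp2, a protease that matures UFM1, had 1157, 813 and 995, then 2133, then 1422 and 1511, with clones 5 and 6 above the (−)/(+) clones and a shift of 0.87 that was 0.54 against clones 5 and 6.

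In Zfp961 and Lonp2, as in Tex15, Nip7, Anapc10 and Ufsp2, the difference from clones 5 and 6 was smaller than the shift. Zfp961, a zinc finger protein, had signals of 728, 636 and 687 in clones 1, 2 and 3, 1436 in clone 4, and 1295 and 1444 in clones 5 and 6. Its shift was 0.96, but against clones 5 and 6 alone it was 0.07, and clone 6 was the highest. Lonp2, the Lon protease of peroxisomes, had 872, 786 and 952, then 1852, then 1444 and 1450, with a shift of 0.95 that became 0.35 against clones 5 and 6.

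At the other end, 8 genes had a shift at or below 0. Atp11a, a phospholipid flippase of the plasma membrane, had signals of 486, 1016 and 701 in clones 1, 2 and 3, 358 in clone 4, and 560 and 563 in clones 5 and 6, a shift of −0.63. It was the only gene of the set that was lowest in clone 4. Cpe, the carboxypeptidase that trims prohormones, had 2287, 2527 and 3108, then 1752, then 2012 and 1377, a shift of −0.38. Clone 4 lay within the range of clones 5 and 6 there, below all 3 (−)/(+) clones, and its difference from clones 5 and 6 was 0.07.

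Cdyl2, a chromodomain protein, had signals of 2890, 2618 and 2604 in clones 1, 2 and 3, 2120 in clone 4, and 2159 and 1675 in clones 5 and 6, a shift of −0.29. As for Cpe, all 3 (+)/(+) clones lay below the (−)/(+) clones, and clone 4 was 0.16 above clones 5 and 6. The remaining genes at or below 0 were Cyba (−0.06), a subunit of NADPH oxidase, Rab3a (−0.06), a GTPase of secretory vesicles, Tmem231 (−0.03), a protein of the ciliary transition zone, Arhgef18 (−0.01) and Plekha2 (−0.01), a phosphoinositide-binding adaptor. Each of these 5 genes had clone 4 inside the range of the other 5 clones.

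Ndrg4 (0.00) and Klf2 (0.04) completed the lowest 10. Klf2 had signals of 4954, 6314 and 5981 in clones 1, 2 and 3, 5812 in clone 4, and 5666 and 5459 in clones 5 and 6. The 6 clones overlapped fully, with an SD of 0.13 over the other 5, and on its sides along the chromosome Ap1m1 had a shift of 0.65 and Cherp of 0.27. Near the middle of the order, Mvd had 656, 625 and 616, then 894, then 647 and 722, a shift of 0.46, with clone 4 highest and the others close together.

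**Figure D4:**
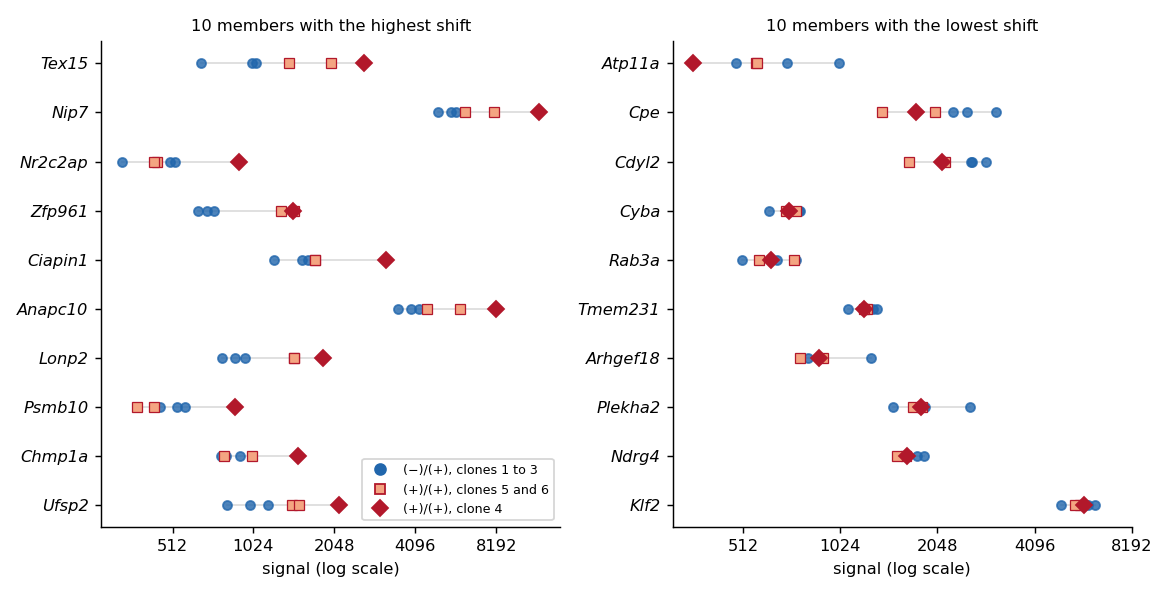
Signal per clone (x axis, log scale) of the 10 genes with the highest (left) and the 10 with the lowest shift (right), with blue circles for (−)/(+) clones 1 to 3, pale red squares for (+)/(+) clones 5 and 6 and red diamonds for clone 4. On the left clone 4 is the rightmost point in 9 of 10 genes, Zfp961 being the exception, and on the right it is leftmost in Atp11a alone.

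Between 1 of 6 and 10 of 10 genes of a functional list were raised. Of 14 genes of DNA replication, repair and the cell cycle, 10 were raised and none was lowered (median 0.42). Mcm5, a subunit of the replicative helicase, had signals of 12503, 12922 and 13231 in clones 1, 2 and 3, 17115 in clone 4, and 12987 and 12453 in clones 5 and 6, a shift of 0.41. Tfdp1, the partner of E2F factors, had 5126, 4800 and 5025, then 8102, then 4961 and 4863, a shift of 0.71. In both the other 5 clones lay within an SD of 0.04, and clone 4 lay far outside. Hmgb2, a chromatin protein of dividing cells, had a shift of 0.73 and Cdt1, which loads the helicase, 0.22.

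Of 16 transcription and chromatin genes 14 were raised (median 0.49), the exceptions being Klf2 and Ctcf (0.27), the insulator protein. Smarca5, an ATPase that slides nucleosomes, had a shift of 0.47, Ash2l, of the complexes that methylate histone H3K4, 0.54, Gtf2e2, of the general factor TFIIE, 0.53, and Sap30, of the Sin3 corepressor, 0.38. Zfp42, the pluripotency marker also called Rex1, had signals of 2921, 3372 and 2979 in clones 1, 2 and 3, 4553 in clone 4, and 3893 and 3999 in clones 5 and 6, a shift of 0.43. Clone 4 was highest and the groups did not overlap. This marker counted as raised and Klf2 did not.

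Of 14 RNA processing genes 10 were raised (median 0.44), including Ddx39a, a helicase of mRNA export (0.49), and Lsm4, of the ring that binds U6 RNA (0.42), while Cnot7, a deadenylase, had a shift of 0.27. Of 8 translation genes 7 were raised (median 0.55), among them Eif4ebp1, the inhibitor of cap-dependent initiation that mTOR controls (0.52), and the tRNA synthetases Kars (0.58) and Aars (0.45). Of 14 genes of mitochondrial proteins 10 were raised (median 0.45), with Vdac3, an outer membrane channel, at 0.56, Slc25a4, the ADP/ATP carrier, at 0.48 and Gcsh, of glycine cleavage, at 0.24. Of 12 proteasome and ubiquitin genes 10 were raised (median 0.53), with Nae1, of NEDD8 activation, at 0.51 and Usp10, a deubiquitinase, at 0.53.

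All 10 genes of stress, metal and redox responses were raised (median 0.49). Mt1 and Mt2, the metallothioneins, lie side by side, and their probe sets may share targets, since that of Mt1 is of the kind that matches several genes. Mt1 had signals of 15685, 9696 and 10841 in clones 1, 2 and 3, 23831 in clone 4, and 15229 and 15173 in clones 5 and 6, a shift of 0.65 with an SD of 0.32 over the other 5. Its other probe set, with a mean signal of 986, read 1358, 1148 and 1186, then 971, then 676 and 579, a shift of −0.24, so the 2 probe sets of Mt1 disagreed in direction. Mt2 had a shift of 0.57, Prdx2, a peroxiredoxin, 0.49 and Dnaja2, a chaperone, 0.39.

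Membrane traffic and lysosome genes had a lower median, 0.39, with 14 of 20 raised. Vps35, of the retromer, had a shift of 0.34, Asah1, the acid ceramidase, 0.32, and Clcn3, an endosomal chloride exchanger, 0.35. Lamp1, a lysosomal membrane glycoprotein, had signals of 6478, 6225 and 6519 in clones 1, 2 and 3, 7167 in clone 4, and 6434 and 6256 in clones 5 and 6. Clone 4 was highest by a shift of 0.16, where the other 5 had an SD of 0.03, so Lamp1 stood apart by a small amount.

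Of 4 genes of growth signalling 3 were raised (median 0.41), namely Gab1, an adaptor of receptor tyrosine kinases (0.45), Prkaca, the catalytic subunit of protein kinase A (0.38), and Smad1, of BMP signalling (0.51), whereas Dlc1 had a shift of 0.11. Of 6 genes of adhesion and matrix 1 was raised (median 0.26). That gene was Cdh1, E-cadherin, with signals of 9176, 6415 and 7930 in clones 1, 2 and 3, 12103 in clone 4, and 8727 and 8025 in clones 5 and 6, a shift of 0.59. Adam9 had 0.25 and Fat1, an atypical cadherin, 0.24, with Fat1 at −0.15 against the median of clones 1, 2 and 3 alone. No list held a lowered gene, in a set where 72.3% were raised and 0.608% lowered.

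Several genes of the set encode subunits of complexes whose other subunits lie on other chromosomes, which gave a comparison within 1 complex and 1 array. In the proteasome Psmd7 (0.76) and Psmb10 (0.91) exceeded all 41 genes encoded elsewhere, whose median shift was 0.14 and highest 0.48. These 41 were grouped by their Psm symbols, and not all of them encode subunits. Psmb10 was in the set only through its signal in clone 4, so its value is not independent of the rule. In the anaphase-promoting complex Anapc10 (0.95) and Cdc16 (0.53) exceeded all 11 others (median 0.01, highest 0.42). The MCM helicase had Mcm5 at 0.41 against −0.14 to 0.20 in 5 others, and the origin recognition complex had Orc6 at 0.72 against −0.19 to 0.27 in 5 others. In these 4 complexes, then, each chromosome 8 subunit lay above every other measured subunit. Psmd7 and Cdc16 also had dim probe sets, and with all probe sets of a gene averaged their shifts were 0.13 and −0.00748, which left them within the range of the others.

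Among the remaining complexes, some had every chromosome 8 subunit above the others and some did not. In respiratory complex I Ndufb7 (0.53) lay above all 30 subunits from elsewhere (median 0.12, highest 0.28) and Ndufa13 (0.27) did not. Cox4i1, of cytochrome c oxidase, had a shift of 0.39, above all 11 others (median 0.06, highest 0.32). Cnot7 and Cope, of the COPI vesicle coat (0.30), also exceeded their partners, whose highest values were 0.14 and 0.22. Among GINS subunits Gins4 had a shift of 0.66, but Gins2 (0.15) lay below Gins1 of chromosome 2 (0.18). In the LSm ring Lsm1, Lsm4 and Lsm6 (0.42 to 0.61) were within the range of Lsm3, Lsm7 and Lsm8 (0.18 to 0.63), which are not on chromosome 8.

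For the mitochondrial ribosome Mrps31 (0.60) exceeded 71 others, whose median was 0.08 and highest 0.37, and Mrpl34 (0.24) did not. Of 3 CENP proteins with a median of 0.51, against 0.06 over 15 others, Cenpn (0.56) alone lay above all of them. The 8 numbered Zfp genes on chromosome 8 had a median of 0.61 and 7 were raised, while 90 such genes elsewhere had a median of −0.04. Of these 90, 9 were raised, and the highest, at 1.67, exceeded all 8 on chromosome 8. In Zfp961, Zfp869 and Zfp958 clones 5 and 6 also lay above the (−)/(+) clones. No cytosolic ribosomal protein gene was in the set, and the 46 from other chromosomes had a median of 0.21.

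**Figure D5:**
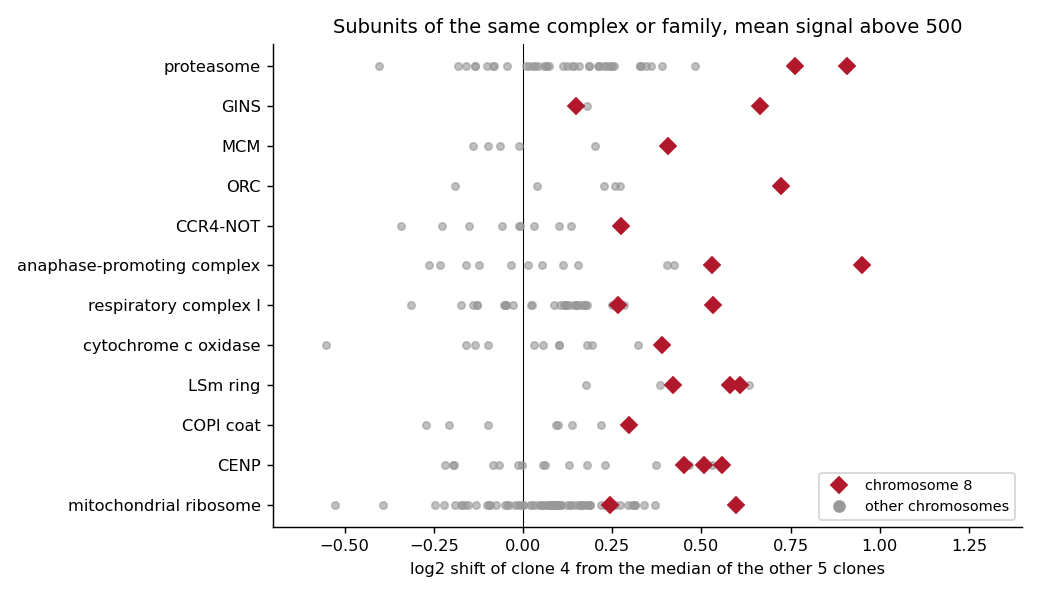
Log2 shift of clone 4 (x axis) of single subunits, 1 complex or family per row, with red diamonds for subunits encoded on chromosome 8 and grey circles for those encoded elsewhere, all with a mean signal above 500. Red lies right of all grey in the proteasome, MCM, ORC, anaphase-promoting complex, CCR4-NOT, cytochrome c oxidase and COPI coat. In the LSm ring every red diamond lies among the grey.

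Probe sets that the selection did not use gave a second measure of the same genes on the same arrays. The 212 genes with more than 1 probe set had 424 others, of which 160 exceeded a mean signal of 500, and these 160 belonged to 112 genes. Their median shift was 0.44, against 0.45 for the selected probe sets of the same genes, and 116 of them (72.5%) were raised. By their selected probe sets 9.23% of all 6025 named genes were raised, and the share over unused probe sets elsewhere was not worked out. Because the arrays are the same, these probe sets are no replicate of clone 4. The paired shifts had a Pearson correlation of 0.45 and a Spearman correlation of 0.47 over 160 pairs, with a median absolute difference of 0.12. The 264 dimmer probe sets had a median of 0.24.

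Of the 8 genes at or below 0, 6 had other probe sets, 11 in all, none above 500. For Atp11a the other probe set read 163, 157 and 124 in clones 1, 2 and 3, 98.8 in clone 4, and 153 and 128 in clones 5 and 6, a shift of −0.56, again lowest in clone 4. For Cpe the other probe set had a mean signal of only 16.6, at which its shift of 1.62 is of little weight. Ciapin1 had others with shifts of 0.58, 0.75 and, at a mean signal of 66.7, 0.16, and Anapc10 had one with 0.93. By kind of probe set, the median shift was 0.46 over the 224 sets that match a single transcript, 0.46 over the 37 shared by transcripts of several genes and 0.38 over the 19 with some probes that match other transcripts.

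Longer genes tended to have slightly smaller shifts. Among the shortest genes, 828 to 10528 bp, the median was 0.49, and among the longest, of 39133 bp or more, it was 0.36, with a Spearman correlation of −0.19 over 329 genes. Atp11a, Cpe and Cdyl2, the genes with the lowest shifts, were long, from 100568 to 164269 bp, which does not speak for the other genes at or below 0. Gene length was not examined on other chromosomes, so the trend cannot be called particular to chromosome 8. The Spearman correlation of the shift with mean signal was 0.18 and with the SD of the other 5 clones 0.01. These values describe genes that share the same arrays, and no test was applied to them.

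The comparison of the treatment groups shows how far clone 4 enters a result on 3i. With all 6 clones, limma's moderated test called 13 genes of the set higher in (+)/(+) (3.95%) and none lower, where 1.35% of all 22518 probe sets tested were higher and 1.77% lower, at an adjusted p under 0.05. At an unadjusted p under 0.05 the set had 61 higher and 3 lower, together 19.5%, where 21.2% of all probe sets passed in either direction, and the median log2 difference over the 329 genes was 0.13. This comparison includes the clone that defined the pattern and is not independent of it. In all 13 genes clones 5 and 6 lay above clones 1, 2 and 3, by 0.41 to 0.99, an order that the call itself favours. Clone 4 exceeded the mean of clones 5 and 6 by 0.07 to 0.66. The count of 13 became 19 without clone 1, 6 without clone 2, 2 without clone 3, 2 without clone 4, 3 without clone 5 and 1 without clone 6. Over all 22518 probe sets, the 305 called higher became 441, 150, 113, 117, 48 and 27 in the same order.

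Without clone 4 the comparison has 3 (−)/(+) and 2 (+)/(+) clones and no longer uses the array behind the shift. The median log2 difference over the 329 genes was then −0.01, and 2 genes (0.608%) were called higher and none lower. Over all probe sets tested the shares were 0.520% and 0.502%, so the share called higher in the set was near the background. At an unadjusted p under 0.05, 36 were higher and 29 lower, together 19.8%, near the 18.3% of all probe sets. Zfp961 was higher in clones 5 and 6 by 0.99 on the log2 scale (SE 0.13, adjusted p = 0.0188 in limma) and Lonp2 by 0.73 (SE 0.13, adjusted p = 0.0462). The (−)/(+) and (+)/(+) values of both genes, given above, did not overlap.

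The other 3 genes named from the fit with 6 clones missed the threshold without clone 4. Zfp869 had signals of 731, 883 and 799 in clones 1, 2 and 3, 1614 in clone 4, and 1274 and 1302 in clones 5 and 6, a group difference of 0.67 without clone 4 (SE 0.13, adjusted p = 0.0557 in limma). Zfp958 had 873, 950 and 924, then 1500, then 1323 and 1442, and a difference of 0.59 (SE 0.12, adjusted p = 0.0646 in limma). Cbr4, a carbonyl reductase of mitochondria, had 1185, 1024 and 818, then 1847, then 1567 and 1872, and a difference of 0.77 (SE 0.17, adjusted p = 0.0748 in limma). In each the (+)/(+) clones lay above all (−)/(+) clones with and without clone 4. The fit lacking clone 4 called 16 genes higher and 7 lower when clone 1 was left out too, 3 higher without clone 2, and none without clone 3. Over all 22518 probe sets these fits called 510, 148 and 67 higher and 510, 135 and 14 lower.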

How the data were processed

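RNA of 6 iPSC clones, 1 clone per array and 3 per group, was measured on Affymetrix Mouse Genome 430 2.0 arrays. The deposited intensity values are MAS 5.0 signals, scaled by the authors so that the mean of every array without its highest and lowest 2% was 500.0. Of 45037 probe sets, without 64 controls, 34945 carried 1 gene symbol, 932 several and 9160 none in the table used. RefSeq GRCm38.p6 gave the chromosome of 34741 through the gene identifier. Values were transformed as log2(signal + 16), and raised and lowered mean a shift of more than 0.32 on the log2 scale. The members, lists and complexes were chosen with earlier results of these data known. Named are the 10 highest and 10 lowest shifts, genes nearest the median and the threshold, the brightest 4 of each list and the genes with the smallest adjusted p. Block ends, single subunits of the complexes, Ctcf and Zfp42 were added after their values were seen. Groups were compared with limma 3.58.1 in R 4.3.3 (lmFit, eBayes with trend) over the 22518 probe sets above the median log2 level, with Benjamini-Hochberg adjustment at 0.05, after a check on simulated data. The number of arrays limits the precision. Other scalings, pseudocounts, thresholds and references, and leaving out each clone, were tried.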

Additional observations from a re-analysis of the deposited data

How the results depend on the processing

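Under 18 alternatives the median shift of the 329 genes stayed positive, and the counts of genes raised and highest in clone 4 stayed within 1.5 times their values. The median became 0.42 after quantile normalization, 0.51 with arrays centred on genes outside chromosome 8, 0.43 at a threshold of 250, 0.42 with all probe sets of a gene averaged, and 0.63 after scaling to a common median, which raised the median of all named genes in clone 4 to 0.17. Centring on genes of other chromosomes with a like signal, chosen after seeing the data, gave 0.46. Genes lowered numbered 1 after scaling to a common median, at a threshold of 1000, with probe sets averaged, against the mean of the others and against clones 5 and 6, 6 at a threshold of 250, and 1 to 2 with single clones left out. Genes at or below the others numbered 3 after scaling to a common median and after centring outside chromosome 8, 4 after centring by signal and at 1000, 26 at 250, 20 with probe sets averaged, 16 against clones 1, 2 and 3, and 7 to 12 with single clones left out. Among them Atp11a was at or below the others in every setting that kept the 329 genes. Cpe reversed to 0.62 with probe sets averaged and to 0.0729 against clones 5 and 6, and Cdc16 to −0.00748 with probe sets averaged. Fat1, which was not raised, had −0.15 against clones 1, 2 and 3. With all 6 clones, genes higher in (+)/(+) numbered 32 after scaling to a common median, 4 without a filter and 2 without the trend. Over all probe sets these settings called 916 of 22518, 101 of 45037 and 87 of 22518 higher. By the methods' t-test they numbered 25 higher and 2 lower unadjusted, where 1593 and 2369 of 22518 probe sets passed. Adjusted, 0 were higher. With single clones left out they numbered 1 to 19 higher and 0 to 2 lower. Over all probe sets these fits called 27 to 441 higher and 25 to 512 lower. Without clone 4 the higher genes numbered 1 after quantile normalization, 1 without a filter and 8 after scaling to a common median. Over all probe sets these settings called 88 of 22518, 18 of 45037 and 308 of 22518 higher. None was higher without the trend or by the adjusted methods' t-test. Unadjusted, that t-test called 27 higher and 24 lower, where 1398 and 1666 of 22518 probe sets passed. With clone 1, 2 or 3 also left out, 0 to 16 were higher and 0 to 7 lower. Over all probe sets these fits called 67 to 510 higher and 14 to 510 lower. The cause of these changes was not tested. No paired analysis was possible because no clone number occurs in both groups.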
